A study of Drosophila melanogaster with 81 samples.

Results

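H3K27me3 peaks under 5000 bp that also carried H3K4me3 in w1118 embryos of Drosophila melanogaster are described here, and are called dual-mark regions. They are the peaks of the w1118 H3K27me3 list at 5.5 to 6 h after egg laying that share at least 1 bp with a peak of the w1118 H3K4me3 list of the same age. There were 467 of them among the 4588 H3K27me3 peaks of that list (10.2%), and they made up 11.5% of its 4059 peaks under 5000 bp. Their remaining marks and their state in histone-deficient embryos were read from 26 lists of CUT&Tag peaks, a method in which an antibody directs a transposase to cut and tag DNA at a chromatin mark. The mutant embryos, called HisC, were homozygous for Df(2L)HisC, a deletion of the replication-dependent histone gene cluster. Libraries were labelled either Df(2L)HisC or, in more detail, Df(2L)HisC, P{GAL4-twi.2xPE} over Df(2L)HisC, P{UAS:eYFP}AH2, so that HisC embryos could be picked by their eYFP. The comparison genotype was w1118, which has the histone genes and neither transgene, so deletion, transgenes and selection cannot be told apart. All embryos were laid within 30 min and aged at 25°C to 3.5 to 4 h (H3K4me3), 4.5 to 5 h or 5.5 to 6 h (all 6 marks). Chromatin came from whole embryos.

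H3K27me3 is laid down by Polycomb repressive complex 2 and marks developmental genes that are kept silent. H3K4me3 is laid down around the starts of active genes by trithorax-related enzymes, and in vertebrate stem cells promoters that carry both marks are known as bivalent. In a whole fly embryo a gene can be active in some cells and silent in others, so a place with both marks need not carry them on the same chromosome copy, and these lists cannot tell the cases apart. Each round of DNA replication dilutes the parental histones of a marked region with newly made ones, and HisC embryos have no replication-dependent histones beyond the maternal supply.

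Each group had 1 pooled list behind 2 or 3 libraries, 59 libraries in all. The lists give positions in dm6 without height, depth is unknown, and no genotype difference below has a replicate check or a p-value. A region without a peak is one where no peak was called. Intervals are exact 95% Clopper-Pearson intervals that cover counting error only, and neighbouring regions are not independent. The lists differed in make-up: HisC H3K27me3 lists held 8320 peaks at 4.5 to 5 h and 8313 at 5.5 to 6 h, with median widths of 779 and 924 bp, against 4605 and 4588 peaks of 1634 and 1572 bp in w1118. They covered 9.13 and 10.9 Mb in HisC, against 10.9 Mb at each time in w1118. HisC H3K4me3 lists also had more and narrower peaks, 8613 and 8991 peaks at the later times, against 5336 and 5728 in w1118. Lists cut to equal numbers of their widest peaks are given with the alternative settings. Such a cut can only lower the shares of the longer list, so the part that list size plays was not tested.

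Dual-mark regions were as wide as other narrow H3K27me3 peaks, at 284 to 4976 bp with a median of 1316 bp, against a median of 1311 bp for the 3592 without H3K4me3. The widest members measured 4976 and 4954 bp, and the nearest peaks beyond the limit 5003 and 5013 bp. The shared stretch ran from 9 to 3998 bp with a median of 446 bp, or 47.1% of the region, while the closest excluded H3K4me3 peak lay 28 bp away. In 156 regions the H3K4me3 peaks lay wholly inside the H3K27me3 peak, in 101 the H3K27me3 peak lay inside an H3K4me3 peak, and in 210 they overlapped in part. More than 1 H3K4me3 peak was met by 56 regions. Another H3K27me3 peak lay within 5000 bp of 313 of them (67.0%). This share is not given for the other H3K27me3 peaks, so closeness cannot be called a trait of the regions.

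The shared stretch lay within 500 bp of an annotated gene end in 220 regions (47.1%), elsewhere in a gene in 173 (37.0%) and between genes in 74 (15.8%). The gene table gives no strand, so a gene end may be a start or a finish. Shares by place are not given for the full lists. Chromosome arm 3R held 132 regions, 2R 103, 3L 90, 2L 78, X 45, Y 13 and chromosome 4 6. Of the 74 regions between genes, 28 were on Y or in the first 500000 bp of 3R, near the centromere. Over the 436 regions outside those stretches, no share of regions with H3K27me3, H3K4me3 or both moved beyond its interval.

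The regions were assigned to 442 genes, 378 of them protein coding, which is 2.48% of all 17807 genes and 2.71% of the 13946 protein-coding genes of the table. Genes that build the nervous system were well represented. Of 20 neuroectoderm and neuroblast genes 10 had a region, among them the Snail-family zinc finger genes sna, esg and wor, the SoxB gene D, the proneural gene ase and the neuroblast fate gene pros. The neuroblast timing factors had 4 of 7, namely svp, nub, pdm2 and grh. Signalling genes followed: 7 of 16 EGF and FGF receptor pathway genes (the ligands spi and vn, the receptors Egfr and htl, the inhibitors sty and aos, and the effector pnt), 8 of 22 Notch pathway and E(spl) genes, and 10 of 25 axon guidance and adhesion genes. Among tissue regulators there were 8 of 19 mesoderm genes, 6 of 19 dorsal ectoderm genes, 4 of 14 tracheal and ectodermal factors and 4 of 16 LIM, Iroquois and NK homeobox genes. Segmentation genes gave 4 of 14 gap genes, 4 of 11 pair-rule genes and 3 of 12 segment polarity genes, and the Wnt and Hedgehog ligands and receptors 5 of 15. The pair-rule gene h and the Notch list gene E(spl)m1, named hry and Kaz-m1 in the gene table, also had a region. Their listed symbols did not match the table, so neither is among the genes counted. The Hox genes, the classic Polycomb targets, had a region at abd-A alone of 8. Peaks of 5000 bp and more are outside the rule, and whether Hox genes have such peaks with H3K4me3 is not given. Polycomb group genes had 3 of 18, Trithorax group and mark enzyme genes 2 of 15, endoderm and gut genes 2 of 12, cell cycle genes 2 of 18 and cell death genes 1 of 13. No region fell at any of 88 ribosomal protein, 48 proteasome, 179 chemoreceptor or 16 histone variant and chaperone genes. The genes with most regions were hth, the Hox cofactor, with 5, and RapGAP1, pnt and robo2 with 3 each.

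H3K27me3 was called at fewer of these regions in HisC than in w1118. At 4.5 to 5 h 51.6% of them (47.0 to 56.2%) had an H3K27me3 peak in HisC, against 83.9% (80.3 to 87.2%) in w1118. Over all 4588 peaks the shares were 60.9% in HisC and 86.4% in w1118. The peak was called in HisC alone at 13 regions and in w1118 alone at 164, a difference of -32.3 percentage points (-34.9 to -28.6). At 5.5 to 6 h 52.9% (48.3 to 57.5%) had one in HisC, against 63.8% of all 4588 peaks and 61.0% (59.4 to 62.6%) of the narrow peaks without H3K4me3. The w1118 share of 100% at that time is set by the choice. Coverage gave the same order, with a mean of 31.7% of the region covered in HisC at 4.5 to 5 h, against 72.5% in w1118. H3K27me3 covered at least 1.5-fold fewer bp in HisC at 267 regions (57.2%) at 4.5 to 5 h, against 59.2% of all peaks. More bp by the same fold was found at 19 (4.07%), against 5.58% of all peaks, so neither share stood far from the rest of the list. The regions were chosen in w1118, which can favour a w1118 list over a HisC list at either time. By the same rule 1944 regions were found in HisC at 4.5 to 5 h. Of these, 37.6% (35.4 to 39.7%) had H3K27me3 in w1118 at that time.

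**Figure D1:**
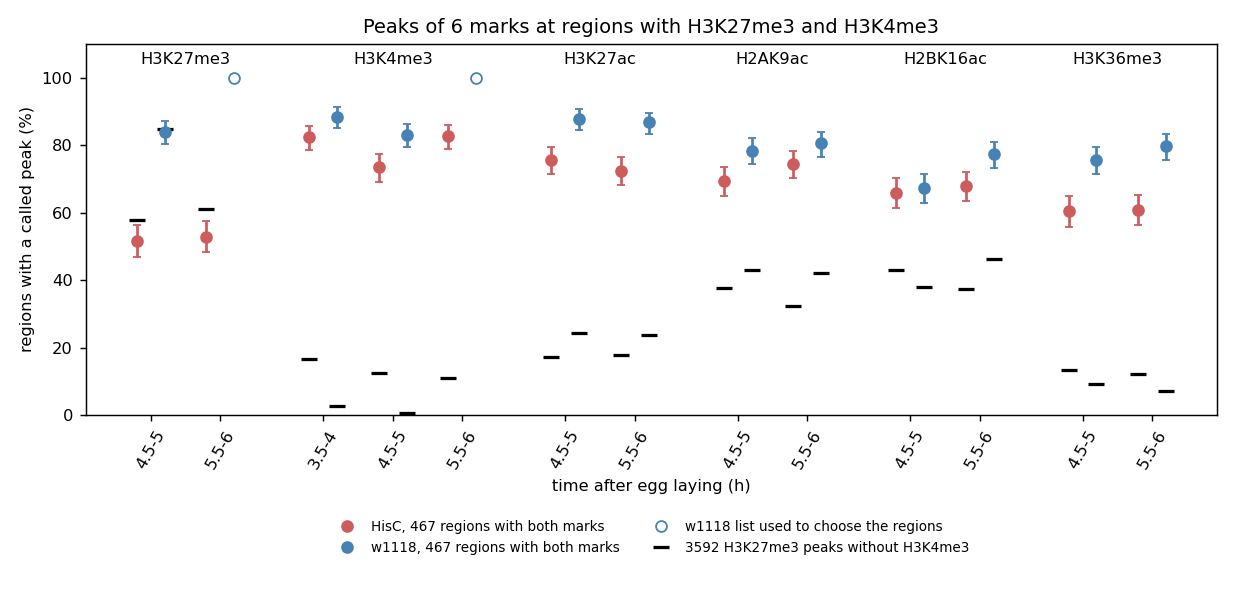
Share of the 467 dual-mark regions (vertical axis, percent) that met a peak of each list, by mark and time after egg laying in h, HisC in red left of w1118 in blue, with exact 95% intervals for counting error. Open circles are the w1118 lists that chose the regions, and black dashes are the 3592 narrow H3K27me3 peaks without H3K4me3; H3K27me3 shows the widest gap between genotypes, 51.6% against 83.9% at 4.5 to 5 h.

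H3K4me3 was kept at more of the regions. In HisC 82.4%, 73.4% and 82.7% of them had an H3K4me3 peak at 3.5 to 4, 4.5 to 5 and 5.5 to 6 h, against 88.4% and 83.1% in w1118 at the earlier times and 100% by choice at the last. The same shares over all 4588 H3K27me3 peaks were 27.1%, 21% and 21.4% in HisC, against 15.1% and 11.9% in w1118. Over all 5728 w1118 H3K4me3 peaks they were 79.5%, 78.4% and 86.3% in HisC, against 93.9% and 89% in w1118, with HisC below w1118 there as well. The genotype difference at the regions was -5.996 points at 3.5 to 4 h, with an interval of -9.90 to -1.71. It was -9.64 points at 4.5 to 5 h, with an interval of -13.7 to -5.07. Narrow H3K27me3 peaks without H3K4me3 went the other way, by 14.1 and 11.8 points, where w1118 had been chosen for a lack of the mark at 5.5 to 6 h. At 4.5 to 5 h H3K4me3 covered at least 1.5-fold fewer bp in HisC at 131 regions (28.1%, against 4.16% of all 4588 peaks) and more at 71 (15.2%, against 13.3%); a peak that has no H3K4me3 cannot lose any.

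Most regions had H3K4me3 before H3K27me3 was first mapped, as did most H3K4me3 peaks of the list. In w1118 at 3.5 to 4 h 88.4% of the regions had it, against 93.9% of all 5728 H3K4me3 peaks. In w1118 367 regions (78.6%) had an H3K4me3 peak at all 3 times and 33 only at 5.5 to 6 h. In HisC 308 (66.0%) had one at all 3 times, 39 at none, and 28 only at 3.5 to 4 h. From 4.5 to 5 h to 5.5 to 6 h HisC gained H3K4me3 calls at 57 regions and lost them at 14, while H3K27me3 calls were gained at 37 and lost at 31. Between these times HisC H3K4me3 also rose over all 5728 H3K4me3 peaks, from 78.4% to 86.3%. Over all 4588 H3K27me3 peaks HisC H3K27me3 went from 60.9% to 63.8%. Counts by all 3 times are not given for the full lists.

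Taking both marks at a time, the dual state was called in HisC at 195 regions (41.8%) at 4.5 to 5 h, against 323 (69.2%) in w1118, where all 4588 peaks gave 15% in HisC and 10.3% in w1118. It was called at 215 (46.0%, against 14.6% of all peaks) in HisC at 5.5 to 6 h. H3K4me3 without H3K27me3 was the next most frequent state, at 148 regions (31.7%; 6.04% of all peaks) in HisC at 4.5 to 5 h, against 65 (13.9%; 1.53%) in w1118, and at 171 (36.6%; 6.78%) in HisC at 5.5 to 6 h. H3K27me3 alone was called at 46 and 32 regions in HisC (46% and 49.1% of all peaks), against 69 in w1118 at 4.5 to 5 h (76.1%). Neither mark was called at 78 and 49 regions in HisC (33% and 29.4%), against 10 in w1118 at 4.5 to 5 h (12%). A single mark in HisC at 5.5 to 6 h was thus H3K4me3 more often than H3K27me3, at 171 and 32 regions. The state was the same at both times in HisC at 334 regions (71.5%): 164 with both marks, 116 with H3K4me3, 38 with neither and 16 with H3K27me3. Counts of an unchanged state are not given for all peaks.

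**Figure D2:**
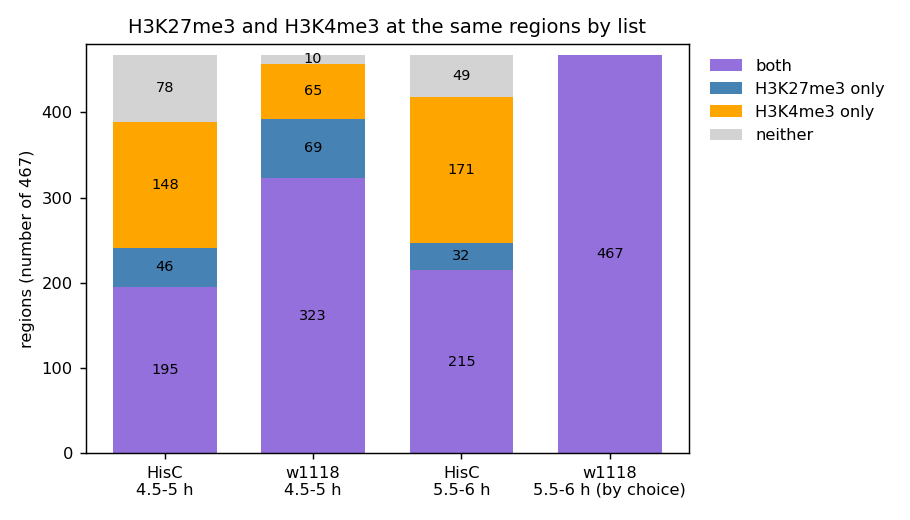
Number of the 467 dual-mark regions (vertical axis) with peaks of both marks, of H3K27me3 only, of H3K4me3 only or of neither, HisC left of w1118 at each time in h after egg laying. All regions have both marks in w1118 at 5.5 to 6 h by choice; 215 have both and 171 have H3K4me3 only in HisC at that time.

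The HisC state differed modestly with place. At 5.5 to 6 h both marks were called in HisC at 107 of 220 regions at a gene end (48.6%), 68 of 173 in gene bodies (39.3%) and 40 of 74 between genes (54.1%). Neither mark was called in HisC at 11 of the gene end regions (5%) and at 29 of the gene body regions (16.8%). Median widths were alike at gene ends and in gene bodies, 1281 and 1259 bp.

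Wider regions more often had H3K27me3 in HisC, while H3K4me3 varied less with width. In the order under 500, 500 to 1000, 1000 to 2000, 2000 to 3000 and 3000 to 5000 bp, 24.3%, 44.8%, 55.3%, 62.1% and 81.8% of the regions had H3K27me3 in HisC at 5.5 to 6 h. The narrow peaks without H3K4me3 gave 37.8%, 52.5%, 61.8%, 72.9% and 81.2%. The dual-mark regions were below them in the first 4 classes, and only under 500 bp did the intervals not meet (16.4 to 33.7% against 34.1 to 41.7%). In w1118 at 4.5 to 5 h the dual-mark regions gave 46.6%, 89.6%, 92.2%, 97.0% and 100%, so the 103 narrowest were also the least constant between times in w1118. The narrow peaks without H3K4me3 gave 59.1%, 78.9%, 88.9%, 97.1% and 99.9% there. Under 500 bp the dual-mark regions were thus the lower in w1118 too. H3K4me3 was called in HisC at 5.5 to 6 h at 87.4%, 84.4%, 85.4%, 78.8% and 75.8% of the dual-mark regions in the same order. The median width was 1853 bp for regions with both marks in HisC at 5.5 to 6 h, 2598 bp with H3K27me3 alone, 662 bp with H3K4me3 alone and 1551 bp with neither.

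**Figure D3:**
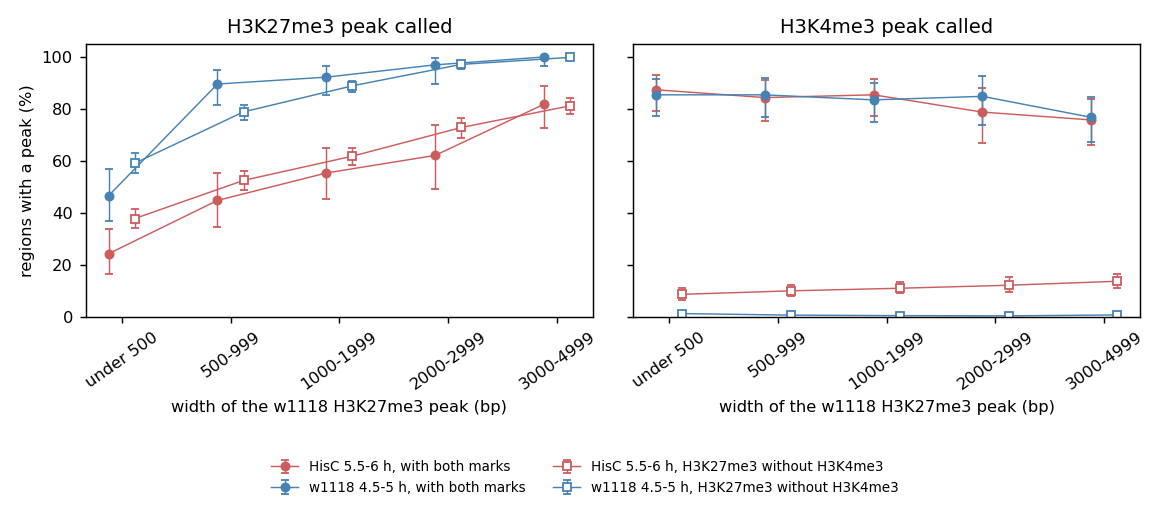
Share of regions with an H3K27me3 peak (left) or an H3K4me3 peak (right) by width of the w1118 H3K27me3 peak in bp, in HisC at 5.5 to 6 h (red) and w1118 at 4.5 to 5 h (blue), with exact 95% intervals. Filled circles are the dual-mark regions and open squares the narrow H3K27me3 peaks without H3K4me3; H3K27me3 in HisC climbs from 24.3% to 81.8% over the width classes of the dual-mark regions.

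Regulators of early patterning were among the regions where HisC kept both marks. In the values that follow, a number of bp is the part of the region covered by peaks of a list, and w1118 at 5.5 to 6 h covers all of it with H3K27me3 by choice. At vvl, which encodes a POU factor of the trachea and nervous system (chr3L:6789539-6792274, 2736 bp), H3K27me3 covered 2715 and 2694 bp in HisC at 4.5 to 5 and 5.5 to 6 h, against 2736 bp in w1118 at 4.5 to 5 h. H3K4me3 there covered 1518, 1893 and 1404 bp in HisC at the 3 times, against 2607, 2080 and 2426 bp in w1118. Nearly the whole H3K27me3 peak thus stayed, and H3K4me3 was lower in HisC at each time.

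The gap gene kni, a nuclear receptor gene (chr3L:20691183-20695935), was much alike, with 4600 and 4491 bp of H3K27me3 in HisC, against 4713 bp in w1118 at 4.5 to 5 h. Its H3K4me3 covered 1735, 1536 and 1458 bp in HisC, against 2263, 1918 and 1835 bp in w1118. The SoxB gene D (chr3L:14175195-14179035) held the 2 marks almost equally in the genotypes. H3K27me3 covered 2348 and 2292 bp in HisC, against 2481 bp in w1118 at 4.5 to 5 h, and H3K4me3 covered 2064, 2072 and 2132 bp in HisC, against 2029, 2133 and 2064 bp in w1118. At D the HisC H3K27ac peaks were the larger, 1998 and 2035 bp, against 939 and 1076 bp in w1118.

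The 3 Snail-family genes had both marks in HisC at both times, with less H3K27me3 than w1118 at 4.5 to 5 h. At wor (chr2L:15423877-15426926) 2241 and 2099 bp of H3K27me3 remained called in HisC, against 2364 bp in w1118 at 4.5 to 5 h. At esg (chr2L:15333396-15337647) there were 2579 and 2538 bp in HisC, against 4143 bp, and at sna (chr2L:15477422-15479049) 362 and 1571 bp in HisC, against 1628 bp. The mesoderm regulator twi (chr2R:23046171-23050305) had 2832 and 2938 bp in HisC, against 4085 bp, with H3K4me3 at 2731, 1602 and 2104 bp in HisC, against 2523, 1806 and 1861 bp in w1118. The GAL4 transgene of the HisC stock carries a twi enhancer, and whether its DNA adds to the twi values was not tested. Other regions with both marks in HisC at both times included Toll-6, a Toll-family receptor gene, unc-5, a netrin receptor gene, and the homeobox genes inv and ems.

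At 2 homeobox genes of the mesoderm H3K4me3 covered more in HisC. At bap, an NK homeobox gene of the visceral mesoderm (chr3R:21387297-21391326), it covered 1836, 1885 and 2037 bp in HisC, against 410, 0 and 1301 bp in w1118, while H3K27me3 stayed at 3938 and 4022 bp in HisC, against 3993 bp. At lbe, the homeobox gene ladybird early of heart and muscle precursors (chr3R:21441707-21446682), it covered 1764, 1655 and 1479 bp in HisC, against 1456, 1402 and 1265 bp in w1118. At the myoblast fusion receptor gene sns (chr2R:8797604-8798838) H3K4me3 covered 544, 1231 and 1229 bp in HisC, against 1235, 1229 and 1229 bp in w1118, lower in HisC only at the first time.

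H3K4me3 without H3K27me3 was the HisC state at many signalling and differentiation genes. At sty, the sprouty gene, an inhibitor of receptor tyrosine kinase signalling (chr3L:3409055-3411269, 2215 bp), no H3K27me3 peak was called in HisC at either time, against 2031 bp in w1118 at 4.5 to 5 h. H3K4me3 at sty covered 919, 875 and 1062 bp in HisC, against 1270, 1179 and 1373 bp in w1118. The teneurin gene Ten-m (chr3L:22406920-22408569) had 0 bp of H3K27me3 in HisC at both times, against 1585 bp, with H3K4me3 at 608, 1376 and 1417 bp in HisC, against 1524, 1084 and 1417 bp in w1118. The death gene hid (chr3L:18184813-18186286) had 0 bp of H3K27me3 in HisC, against 1412 bp, with 234, 594 and 601 bp of H3K4me3 in HisC, against 1474, 1127 and 1164 bp in w1118. At these regions of the 3 genes H3K27me3 was not called in HisC while H3K4me3 was, at less than the w1118 level in sty and hid. A further region at Ten-m is not described here.

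Within the E(spl) complex, whose genes are direct effectors of Notch, E(spl)m7-HLH (chr3R:26035022-26036875) had 0 bp of H3K27me3 in HisC at both times, against 1854 bp in w1118 at 4.5 to 5 h. E(spl)m5-HLH (chr3R:26027218-26030740) was fully covered by H3K27me3 in both genotypes at 4.5 to 5 h, 3523 bp each, and had 0 bp in HisC at 5.5 to 6 h. E(spl)m2-BFM had 225 and 0 bp in HisC, against 2152 bp. Tom, a Bearded-family inhibitor of Notch ligand activity in another complex (chr3L:14966310-14969905), had 0 bp at both times in HisC, against 3545 bp, and kept 768, 404 and 889 bp of H3K4me3 in HisC, against 715, 591 and 711 bp in w1118. All 4 genes lost the H3K27me3 call in HisC by 5.5 to 6 h and had H3K4me3 in HisC at each time.

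The neuroblast gene ase (chrX:460481-462552, 2072 bp) had a different course. H3K27me3 was not called in HisC, against 1769 bp in w1118 at 4.5 to 5 h, and H3K4me3 covered 0, 0 and 322 bp in HisC, against 1074, 1486 and 1934 bp in w1118. H3K27ac at ase covered 0 and 887 bp in HisC, against 339 and 315 bp in w1118. Narrow regions at chromatin regulators varied. At nej, the gene of the acetyltransferase CBP (chrX:9686435-9686782, 348 bp), H3K4me3, H3K27ac and H3K36me3 covered the full 348 bp in every list of both genotypes, and H3K27me3 did so in w1118 alone. At osa, a Brahma complex subunit gene, 0 bp of 370 bp had H3K27me3 in HisC at 4.5 to 5 h, against 359 bp in w1118. At the Polycomb gene ph-p (chrX:2137208-2138056, 849 bp) H3K27me3 was called in HisC, at 617 and 729 bp, against 849 bp in w1118 at 4.5 to 5 h.

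The 49 regions with neither mark in HisC at 5.5 to 6 h included several cell surface genes. At dally, a glypican gene (chr3L:8827277-8831114), H3K27me3 covered 252 and 0 bp in HisC, against 2874 bp in w1118 at 4.5 to 5 h, and H3K4me3 covered 234, 0 and 0 bp in HisC, against 1856, 1148 and 1806 bp in w1118. Lac, which encodes the septate junction protein Lachesin (chr2R:12460456-12462862), had no peak of either mark in HisC at any time, against 1517 bp of H3K27me3 at 4.5 to 5 h and 1075, 611 and 1187 bp of H3K4me3 in w1118. The same held for hbs, the immunoglobulin gene hibris (chr2R:15010740-15015234), against 1970 bp of H3K27me3 and 1124, 640 and 735 bp of H3K4me3 in w1118. At 5.5 to 6 h these regions of the 3 genes thus had neither the active nor the Polycomb mark called in HisC. A further region at dally is not described here.

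At comm, whose product sorts the guidance receptor Robo (chr3L:15726002-15726722, 721 bp), no HisC list of any mark had a peak. The w1118 lists gave 525 bp of H3K27me3 at 4.5 to 5 h, 287, 0 and 655 bp of H3K4me3 at the 3 times, and 504 bp of H3K27ac at 5.5 to 6 h. Of the 467 regions, 9 had no peak in any of the HisC lists. The others were at tsh, apt, cv-c, CG42342, MED26, Gmap and CG15646 and at 1 place between genes on 3L, and were named after their values were seen. The same count over all peaks is not given. The genes comm, tsh and apt had 2 regions each, and the other at apt (chr2R:23571083-23573905) had a peak in all 26 lists. At 5.5 to 6 h alone no HisC mark was called at 20 regions (4.28%), against 22.8% of the narrow H3K27me3 peaks without H3K4me3.

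The opposite outcome, H3K27me3 without H3K4me3, was found in HisC at 5.5 to 6 h at 32 regions. At the Hox gene abd-A (chr3R:16829971-16830392, 422 bp) H3K27me3 covered 328 and 422 bp in HisC, against 422 bp in w1118 at 4.5 to 5 h, and H3K4me3 covered 228, 0 and 0 bp in HisC, against 384, 0 and 232 bp in w1118. H3K27ac there was not called in HisC, against 404 and 422 bp in w1118.

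**Figure D4:**
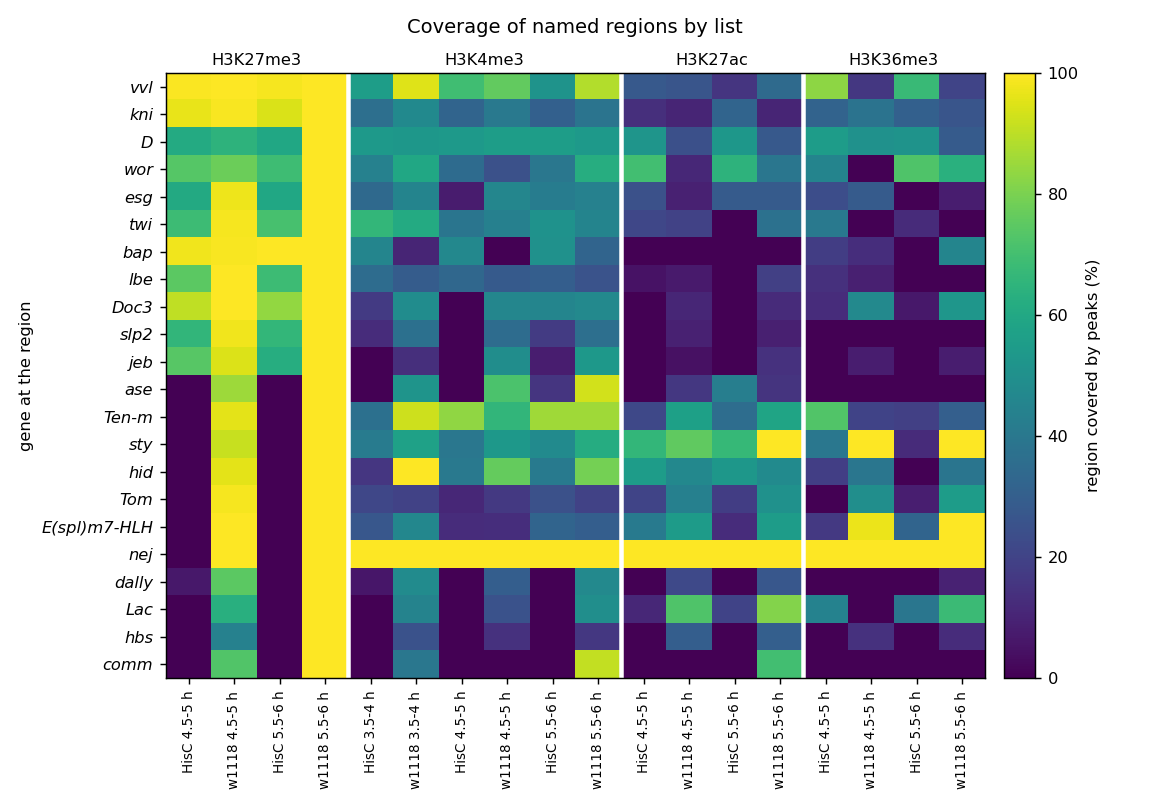
Percent of a region covered by peaks (colour, 0 to 100) at 22 named dual-mark regions (rows, by gene) in lists of 4 marks (columns, HisC left of w1118 at each time in h). The H3K27me3 column of w1118 at 5.5 to 6 h is 100 by choice; from vvl to jeb HisC keeps H3K27me3, from ase to nej it has none while H3K4me3 is called at 5.5 to 6 h, and from dally to comm neither is called at that time.

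Gene lists are described by their HisC state, and no difference between lists was tested. Against the 46.0% of all dual-mark regions that had both marks in HisC at 5.5 to 6 h, all 6 regions at dorsal ectoderm genes had both (Doc3, dpp, srp, brk, ush and C15), as did all 4 at gap genes (kni, ems, oc and slp2), all 4 at LIM and NK homeobox genes (bap, lbe, ap and C15), 9 of 10 at mesoderm genes and 5 of 6 at neuroblast timing factors. At neuroectoderm and neuroblast genes 6 of 11 had both and 3 had H3K27me3 only. Signalling and adhesion genes more often had H3K4me3 alone in these counts. H3K4me3 alone, the state of 36.6% of all dual-mark regions, was called at 7 of 12 regions of the EGF and FGF receptor pathway, at 6 of 8 of the Notch pathway and E(spl) genes, and at 8 of 14 of axon guidance and adhesion genes, and both marks at 3, 1 and 4. The cell cycle genes CycE and E2f1, the chromatin genes nej and osa, and hid made 5 regions, all with H3K4me3 alone. Polycomb group genes had both at 3 of 5, tracheal and ectodermal factors at 3 of 4, pair-rule genes at 3 of 5, segment polarity genes at 2 of 3, endoderm and gut genes at 2 of 3 and Wnt and Hedgehog genes at 2 of 5.

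The lists also differed in the width of their regions, which moved with the state. Median widths were 4175 bp for dorsal ectoderm genes, 4107 bp for gap genes, 4097 bp for LIM and NK homeobox genes and 1975 bp for mesoderm genes. They were 1790 bp for the EGF and FGF receptor pathway, 1518 bp for the Notch pathway, 2179 bp for axon guidance and 1316 bp for all dual-mark regions. The part of width in the list counts was not tested. Several genes stand in more than 1 list and some have 2 regions, so these counts are not independent. The genes hry and Kaz-m1 were not used for these counts.

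**Figure D5:**
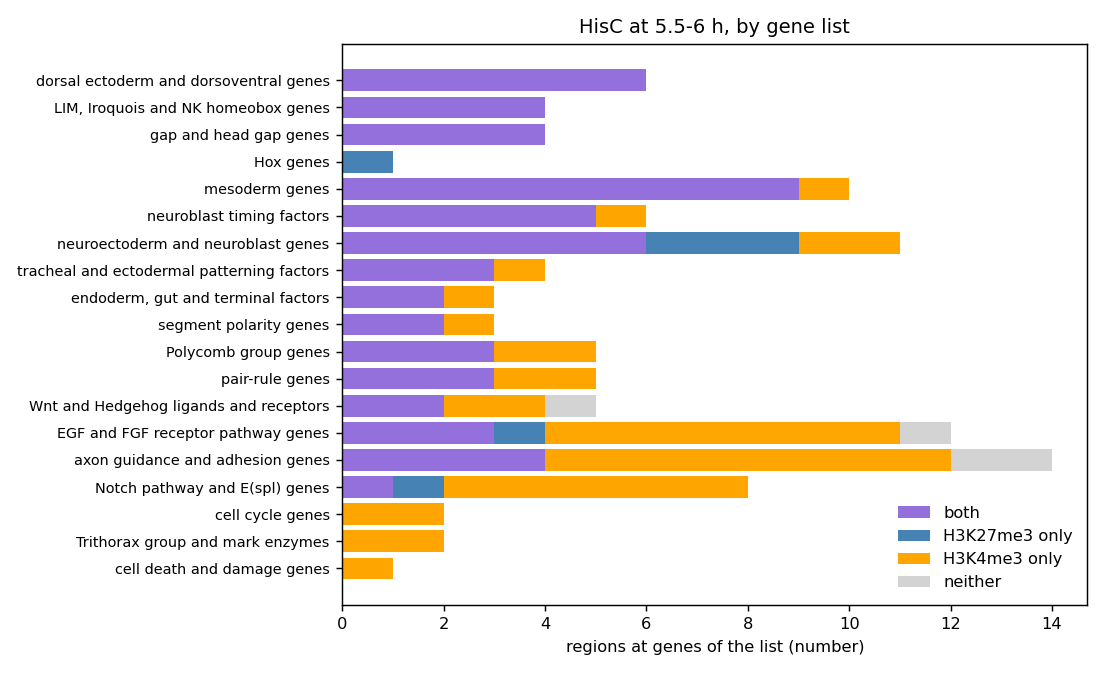
Number of dual-mark regions (horizontal axis) at genes of each list, coloured by their HisC state at 5.5 to 6 h, ordered by the share that kept H3K27me3. All 6 dorsal ectoderm and 4 gap gene regions have both marks, while 6 of 8 Notch pathway regions and 7 of 12 EGF and FGF receptor pathway regions have H3K4me3 only.

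EGF receptor signalling genes were not alike. Both regions of the receptor gene Egfr had no H3K27me3 in HisC at either time, against 3474 and 911 bp in w1118 at 4.5 to 5 h. At aos, the secreted inhibitor argos, H3K27me3 likewise covered 0 bp in HisC, against 2565 bp, with H3K4me3 at 193 bp in HisC at 5.5 to 6 h. One of 2 regions at the ligand gene spi (chr2L:19572094-19573025) had no H3K27me3 in either genotype at 4.5 to 5 h, and its H3K4me3 covered 0, 0 and 442 bp in HisC, against 686, 722 and 722 bp in w1118. The other had 0 and 751 bp of H3K27me3 in HisC, against 788 bp in w1118 at 4.5 to 5 h, and H3K4me3 in HisC at each time. The ligand gene vn (chr3L:5843152-5846123) had both marks in HisC, with 1043 and 2649 bp of H3K27me3 in HisC, against 2750 bp in w1118 at 4.5 to 5 h, and 1338, 311 and 1110 bp of H3K4me3 in HisC, against 2175, 1436 and 1465 bp in w1118. At the longest of 3 regions at pnt (chr3R:23312451-23314409), the ETS effector, H3K27me3 covered 295 and 0 bp in HisC, against 521 bp, and H3K4me3 902, 0 and 0 bp in HisC, against 651, 395 and 704 bp in w1118.

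Among the Wnt and Hedgehog genes, ptc (the Hedgehog receptor, chr2R:8654468-8656289) had 952 and 0 bp of H3K27me3 in HisC, against 1738 bp in w1118 at 4.5 to 5 h, with H3K4me3 at 1010, 631 and 581 bp in HisC, against 1012, 548 and 563 bp in w1118. The Wnt receptor genes fz and fz2 had 0 bp of H3K27me3 in HisC at both times, against 1201 and 2131 bp in w1118. At dpp, the BMP ligand gene (chr2L:2454585-2459093), 3311 and 3205 bp of H3K27me3 stayed in HisC, against 4347 bp, and every one of the 26 lists had a peak.

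The 4 other marks were each more frequent at dual-mark regions than at narrow H3K27me3 peaks without H3K4me3. H3K27ac, a mark of active promoters and enhancers, was called at 75.6% and 72.4% of the regions in HisC at 4.5 to 5 and 5.5 to 6 h, against 87.8% and 86.7% in w1118. All 4588 H3K27me3 peaks gave 25.2% and 24.7% in HisC, against 35% and 34.6% in w1118. H2AK9ac, an acetylation of H2A, was called at 69.4% and 74.5% in HisC (43.8% and 39.2% of all peaks), against 78.4% and 80.5% in w1118 (49.7% and 49.1%). H2BK16ac, on H2B, was called at 66.0% and 67.9% in HisC (47.6% and 43.5%), against 67.2% and 77.3% in w1118 (43.1% and 52.3%). H3K36me3, a mark of transcribed gene bodies, was called at 60.4% and 60.8% in HisC (19.9% and 18.9%), against 75.6% and 79.7% in w1118 (19.3% and 17.8%). In w1118 at 5.5 to 6 h H3K4me3 peaks without H3K27me3 came near the dual-mark shares, with H3K27ac at 85.6% and H3K36me3 at 75.6%. Their H2AK9ac and H2BK16ac shares were lower, 42.1% and 33.1%. H3K27me3 peaks of 5000 bp and more with H3K4me3 gave 89.9% for H3K27ac, 88.5% for H2AK9ac, 91.2% for H2BK16ac and 81.1% for H3K36me3.

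At the dual-mark regions HisC had fewer calls than w1118 for all 4 marks, though not beyond counting error for each. H3K27ac differed by -12.2 points (-16.1 to -7.70) and -14.3 (-18.4 to -9.61), and H2AK9ac by -8.99 (-13.1 to -4.38) and -5.996 (-10.2 to -1.45); the last became -3.64 (-8.03 to 0.95) with equal numbers of the widest peaks and -5.91 (-11.5 to 0.50) at gene ends, where the interval includes 0. H2BK16ac differed by -1.28 (-6.24 to 3.73) at 4.5 to 5 h, within counting error, and by -9.42 (-13.3 to -5.05) at 5.5 to 6 h. H3K36me3 differed by -15.2 (-19.7 to -10.1) and -18.8 (-22.9 to -14.0). For H3K36me3 the narrow H3K27me3 peaks without H3K4me3 went the other way, by 4.12 points (2.88 to 5.32) and 5.04 points (3.89 to 6.13), with 12.3% called in HisC at 5.5 to 6 h, against 7.24% in w1118. The 5009 w1118 H3K4me3 peaks without H3K27me3 gave a further comparison, in which H3K36me3 and H3K27ac were lower in HisC as well. H3K36me3 differed there by -12.5 and -22.1 points and H3K27ac by -19.3 and -24.9 points, so lower calls of these marks were not particular to the dual-mark regions. H2AK9ac and H2BK16ac were called more often in HisC at those peaks, by 6.63 and 5.97 points and by 16.03 and 5.63 points.

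By covered bp, H3K27ac was at least 1.5-fold lower in HisC at both times at 130 regions (27.8%, against 15.7% of all H3K27me3 peaks) and higher at 35 (7.49%, against 5.47%). H3K36me3 was lower at 118 (25.3%, against 5.58%) and higher at 27 (5.78%, against 4.84%). H2AK9ac was lower at 69 (14.8%, against 10.4%) and higher at 22 (4.71%, against 4.36%), and H2BK16ac lower at 54 (11.6%, against 7.11%) and higher at 32 (6.85%, against 6.12%). Peaks without a mark in w1118 cannot be lower in HisC, and fewer of the dual-mark regions lacked it in w1118. More of them were lower than higher for each of these marks.

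The largest losses of H3K27ac were at px, Lac and hbs. At px, a wing vein gene (chr2R:22506281-22509487), H3K27ac covered 0 bp in HisC at both times, against 1884 and 1781 bp in w1118, and H3K27me3 covered 0 bp in HisC, against 3207 bp in w1118 at 4.5 to 5 h. The other region at px (chr2R:22514159-22514479, 321 bp) had a peak in all 26 lists, so the loss was not shared by both. The largest gains were at rib, trn and danr. At rib, a BTB-domain regulator of tubular organs (chr2R:19278287-19280107, 1821 bp), H3K27ac covered 1503 and 1821 bp in HisC, against 0 bp in w1118, while H3K27me3 covered all 1821 bp in HisC at both times. At trn, a leucine-rich repeat receptor gene (chr3L:13115414-13117402), H3K27ac covered 1286 and 1896 bp in HisC, against 0 bp in w1118, and H3K27me3 1595 and 1896 bp in HisC, against 1874 bp in w1118 at 4.5 to 5 h. Regions with the largest H3K27ac gains thus kept H3K27me3, and those with the largest losses had no H3K27me3 in HisC.

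H3K36me3 was lower in HisC at NimC4, which encodes an engulfment receptor of glia and macrophages, with 0 bp in HisC at both times, against 2270 and 1875 bp in w1118. At a region of the Slit receptor gene robo2 (chr2L:1420500-1423283) it covered 0 bp in HisC, against 1993 and 1711 bp. It was higher at vvl, with 2270 and 1850 bp in HisC, against 445 and 557 bp in w1118, and at fj, four-jointed, with 1836 and 1870 bp in HisC, against 513 and 0 bp. For H2AK9ac, Toll-7 had 2964 and 3241 bp in HisC, against 0 and 1447 bp in w1118, and inv had 632 and 0 bp in HisC, against 3744 and 1509 bp in w1118.

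The other marks varied with the HisC state of the region, and their w1118 shares differed between these groups as well. At 5.5 to 6 h H3K36me3 was called in HisC at 74.9% (68.5 to 80.5%) of the 215 regions that had both marks there, at 60.8% of the 171 with H3K4me3 alone, at 28.1% of the 32 with H3K27me3 alone and at 20.4% (10.2 to 34.3%) of the 49 with neither. H2AK9ac was called at 85.6%, 74.9%, 65.6% and 30.6% in the same order, and H2BK16ac at 84.7%, 60.8%, 56.3% and 26.5%. H3K27ac was called in HisC at 74.9%, 80.7%, 56.3% and 42.9%. In w1118 the same regions had H3K27ac at 80.0%, 93.0%, 90.6% and 91.8%, so the regions with neither mark in HisC were not low in H3K27ac in w1118. H2AK9ac in w1118 was called at 89.3%, 78.9%, 68.8% and 55.1% of them, and H2BK16ac at 88.8%, 71.3%, 65.6% and 55.1%. H3K36me3 in w1118 was called at 82.3%, 83.6%, 56.3% and 69.4%. A region wider than another can meet more peaks, and the widths given above moved with the state.

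Summed over the regions, the other marks covered a larger share of the stretches where H3K27me3 and H3K4me3 met than of the rest. The shared stretches summed to 296245 bp and the rest of the regions to 519944 bp. H3K27ac covered 57.7% of the shared bp and 15.8% of the rest in HisC at 5.5 to 6 h, against 66.5% and 24.2% in w1118. H3K36me3 covered 49.6% and 13.4% in HisC, against 69.6% and 18.8% in w1118. The H3K27me3 that stayed in HisC was also denser there: at 5.5 to 6 h it covered 52.3% of the shared bp and 36.2% of the rest, and at 4.5 to 5 h 50.1% and 31.9%. In w1118 at 4.5 to 5 h both parts were covered alike, 82.3% and 82.4%.

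At 5.5 to 6 h the 4 marks other than the pair were all called at 39.2% (34.7 to 43.8%) of the dual-mark regions in HisC, against 54.8% (50.2 to 59.4%) in w1118. The narrow H3K27me3 peaks without H3K4me3 had all 4 at 5.07% in HisC, against 2.87% in w1118, and the 5009 H3K4me3 peaks without H3K27me3 at 23.4% in HisC, against 19.8% in w1118. Read from the H3K4me3 side, the 524 H3K4me3 peaks that met a dual-mark region had all 4 at 36.6% in HisC, against 49.2% in w1118, although they were narrower than the H3K4me3 peaks without H3K27me3 (median 668 against 913 bp).

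A peak in all 26 lists was found at 43 regions, 8 of them on Y or near the centromere of 3R, where the longest shared stretch, 3998 bp, also lay. The others included vvl, D, kni, trh, Toll-6, unc-5, dpp, brk, sns, ap, Optix, zfh2 and the Polycomb gene Psc, of which zfh2 was named after its values were seen. The w1118 lists that chose the regions have a peak at each by choice. How many of all H3K27me3 peaks met every list is not given, so the count is a description only. At Psc, a subunit gene of Polycomb repressive complex 1 (chr2R:12970106-12971285, 1180 bp), H3K27me3 covered 904 and 937 bp in HisC, against 1180 bp in w1118 at 4.5 to 5 h, and H3K4me3 1132, 885 and 988 bp in HisC, against 581, 834 and 838 bp in w1118.

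Applying the same rule to the HisC lists gives the view from the other side. It found 1944 regions among 8270 narrow H3K27me3 peaks at 4.5 to 5 h (23.5%) and 1546 among 8183 at 5.5 to 6 h (18.9%), against 402 of 4083 (9.85%) and 467 of 4059 (11.5%) in w1118. Of the 1546 HisC regions 41.7% (39.2 to 44.2%) had H3K27me3 and 45.8% (43.3 to 48.3%) had H3K4me3 in w1118 at 5.5 to 6 h, against 52.9% and 82.7% of the w1118 regions that had them in HisC. Of the 1546, 209 met a dual-mark region of w1118. Regions defined in either genotype were thus called only in part in the other. How much of the differences above goes with the choice of regions in w1118 was not tested.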

How the data were processed

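Peak lists of 26 groups, 59 of the 81 libraries of the series, were analysed, and the other libraries were not used here. Each list, as deposited by the authors, has a chromosome, a start and an end in bp (dm6) and no other value. The submitters' processing notes name Bowtie2 2.3.4.2 and SAMtools 1.9, with Trim Galore 0.6.6 and cutadapt 1.17 as trimmers and deepTools 3.3.1. For the peak caller and the combining of libraries nothing is given in the sources used here. The list names mark H3K4me3 and H3K27ac as narrow and the others as broad calls, and the HisC H3K4me3 list at 3.5 to 4 h as having an exclusion of unstated meaning. More reads can give more and wider peaks.

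A region had a mark when a peak shared at least 1 bp with it, and covered bp were counted within it. Shares carry exact 95% Clopper-Pearson intervals, differences from the regions called in 1 genotype alone. No p-value was computed, since each group has 1 list. Covered bp at least 1.5-fold apart counted as lower or higher, for the other marks at both times. Genes came from a RefSeq table of Release 6 without strand, transcripts or sequence, so no sequence or motif is shown; a region's genes had an end within 500 bp of the shared stretch or, failing that, a body over it. Of the listed symbols, 9 did not match, including those of hry and Kaz-m1, which had a region. Named were up to 4 genes per list and the 10 regions with the longest shared stretch among all, with neither mark and with both marks in HisC, plus 3 per mark and direction. In the account of EGF receptor genes, Egfr, aos and the second spi region were added after their values were seen, as was sna among the Snail-family genes. Members and all 23 gene lists were chosen with earlier results of these data known. Overlap counting was tested on simulated lists. Python 3.11.15, numpy 2.4.6, pandas 2.3.3, scipy 1.17.1 and matplotlib 3.10.9 were used.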

Additional observations from a re-analysis of the deposited data

How the results depend on the processing

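With at least 100 bp of overlap for membership or for a call, and without regions on Y and in the first 500000 bp of 3R (the last chosen after seeing the data), no result moved beyond its interval. Regions under 3000 bp had H3K27me3 at 42.9% and 45.1% in HisC at the 2 times, against 79.6% in w1118 at 4.5 to 5 h, with both marks at 40.2% in HisC at 5.5 to 6 h. With no width limit the same shares were 62.0%, 63.6% and 87.8%, both marks in HisC stood at 49.3% and 55.0%, and H3K27ac differed by -19.5 points at 5.5 to 6 h. Counting only peaks of at least 500 bp, H3K27me3 was called at 43.0% and 44.1% in HisC, against 74.7% in w1118 at 4.5 to 5 h. H3K4me3 was then called at 49.3%, 52.7% and 63.6% in HisC, against 67.9% and 61.2% in w1118, and both marks at 26.98% and 31.9% in HisC, against 45.2% in w1118 at 4.5 to 5 h. HisC minus w1118 was -18.6 and -21.0 points for H3K27ac, and at 4.5 to 5 h -17.8 for H2AK9ac, -7.49 for H2BK16ac and -10.7 for H3K36me3, so the order of the marks depends on the setting. With equal numbers of the widest peaks per mark, HisC had H3K27me3 at 39.4% and 37.5%, H3K4me3 at 55.7%, 54.4% and 63.4% and both marks at 24.8% and 26.8%. The genotypes then differed by -12.4 points for H2BK16ac at 4.5 to 5 h and by -26.98 and -35.5 for H3K36me3. At 5.5 to 6 h H2AK9ac and H2BK16ac came nearer to 0, at -3.64 (-8.03 to 0.95) and -7.07 points. On the shared stretch alone H3K27me3 was called at 46.7% in HisC at 4.5 to 5 h. For the 220 regions at a gene end, H3K4me3 was called at 86.4% in HisC at 5.5 to 6 h, against 93.2% and 88.2% in w1118 at the earlier times. The differences there were -16.8 and -19.5 points for H3K27ac and -23.2 for H3K36me3 at 5.5 to 6 h. H2BK16ac at 4.5 to 5 h changed sign, to 1.30 points with no width limit, 1.07 on the shared stretch and 2.73 at gene ends, against -1.28 over all regions; its interval includes 0 in each of these, and the cause was not tested. No paired analysis was possible because each group has 1 pooled list and the results come from no test. Leaving out a library was likewise not possible. Depth is unknown, so a missing peak may lie under the limit of calling.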

Other observations

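H3K27me3 peaks of 5000 bp and more that met H3K4me3, 148 in number with a median width of 7178 bp, more often had an H3K27me3 call in HisC than the narrower dual-mark regions. H3K27me3 was called at 94.6% and 97.3% of the wide peaks in HisC at 4.5 to 5 and 5.5 to 6 h, against 100% in w1118 at 4.5 to 5 h. The narrower regions had it at 51.6% and 52.9% in HisC. By length the wide peaks were less covered in HisC too, with a mean of 44.4% and 50.9% of the peak covered in HisC, against 88.8% in w1118 at 4.5 to 5 h. H3K27ac, in contrast, was called at 62.2% and 54.1% in HisC, against 88.5% and 89.9% in w1118, differences of -26.4 points (-30.9 to -18.4) and -35.8 (-39.7 to -28.1). The dual-mark regions under 5000 bp differed by -12.2 and -14.3 points in H3K27ac. A wide region can keep a call when most of its length is lost, so these shares say less about the wide peaks than about the narrow ones.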
